A study of Homo sapiens with 5 samples.

Results

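H3K27ac peaks over the HOX clusters were examined in HCT116 cells with and without interferon beta (IFN-β). HCT116 cells are an established line from a human colorectal carcinoma. H3K27ac, the acetylated lysine 27 of histone H3, marks active promoters and enhancers and was read here by ChIP-seq. A HOX peak was a peak of the deposited table whose centre lay within 5 kb of any annotated start of a protein-coding HOXA, HOXB, HOXC or HOXD gene, or inside the body of such a gene, in GENCODE release 44. The rule found 27 HOX peaks among 20087 peaks, and it used no measured value. HOXA held 10 of them, HOXB held 9, HOXC held 4 and HOXD held 4.

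All libraries came from HCT116 CMV-osTIR1 RAD21-mAC cells, a derivative in which the CMV promoter drives the plant F-box protein osTIR1 and the cohesin subunit RAD21 carries the mAC degron tag. The controls therefore carried both alleles too, and every group was kept in 0.1% DMSO for 6 h. The IFN-β group had 2 libraries from cells given 1000 unit/ml IFN-β for 60 min. The unstimulated group had 2 libraries labelled 0 min, so the extra hour of culture and IFN-β cannot be told apart. There was 1 input library, labelled as unstimulated at 60 min, and 500000 cells went into each ChIP. The labels do not say that the libraries came from separate cultures.

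The values are the authors' deposited group means, each the log2 of the mean normalized reads in a peak. No value per library was analysed here, so the spread between replicates is unknown and no difference below was tested. A difference is the IFN-β mean minus the unstimulated mean, on the log2 scale. In bulk chromatin, fewer cells with the mark and less mark per cell cannot be told apart. A peak is DNA without a strand, so a peak shared by neighbouring, overlapping or antisense genes belongs to none of them alone, and 13 of the 27 HOX peaks met the rule for more than 1 HOX gene.

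HOX genes encode homeodomain transcription factors that give cells their position along the body axis. They lie in 4 clusters in which the order of the genes matches where, and when, they are used in the embryo, and genes at the same place in different clusters are called paralogs and share a number. Trithorax proteins, such as the histone methyltransferase KMT2A, keep HOX genes active, whereas Polycomb proteins keep them silent. In the adult gut epithelium, HOX genes are used by region, and the intestinal factor CDX2 is one of their upstream regulators.

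Sequences from 4 HOX peaks show what the clusters hold. They are the strongest unstimulated peaks of HOXA, HOXC and HOXD and the 1 HOX peak that was higher with IFN-β. Each is 200 bases of the GRCh38 forward strand, taken as near the centre of its peak as annotated exons allowed. Capitals mark matches to any of 12 searched motifs, which are spelled out or named with the motif counts. The stretches lie at chr7:27166970-27167169, chr12:53995910-53996109, chr2:176136412-176136611 and chr17:48587200-48587399, in the order printed.
Strongest HOXA peak, upstream of HOXA9: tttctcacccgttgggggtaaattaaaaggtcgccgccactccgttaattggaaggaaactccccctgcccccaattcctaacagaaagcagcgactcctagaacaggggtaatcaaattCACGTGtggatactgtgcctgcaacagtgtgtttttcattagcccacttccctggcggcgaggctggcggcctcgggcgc
Strongest HOXC peak, at a HOXC9 start: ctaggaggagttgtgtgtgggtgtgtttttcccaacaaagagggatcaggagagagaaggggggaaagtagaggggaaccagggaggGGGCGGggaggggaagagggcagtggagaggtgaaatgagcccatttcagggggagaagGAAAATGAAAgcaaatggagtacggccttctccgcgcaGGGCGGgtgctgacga
Strongest HOXD peak, at a HOXD3 start: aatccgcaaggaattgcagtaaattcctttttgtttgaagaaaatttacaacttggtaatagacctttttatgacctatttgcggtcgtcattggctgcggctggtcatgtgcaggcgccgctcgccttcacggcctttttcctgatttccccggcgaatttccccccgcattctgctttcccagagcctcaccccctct
HOXB peak with the highest difference, in a HOXB3 intron: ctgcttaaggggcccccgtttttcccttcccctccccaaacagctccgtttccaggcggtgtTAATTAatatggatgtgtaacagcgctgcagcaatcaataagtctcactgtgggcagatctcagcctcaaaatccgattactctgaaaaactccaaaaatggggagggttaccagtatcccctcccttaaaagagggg
The HOXA stretch, upstream of the nearest HOXA9 start but inside the annotated HOXA9 body, held 1 E-box. The HOXC stretch held 2 GC boxes and 1 interferon-stimulated response element (ISRE) core, and the HOXB3 stretch held 1 homeobox core. None of the 12 motifs matched in the HOXD stretch.

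The HOX peaks ran from weak to very strong in unstimulated cells. Their means ran from 3.09 to 8.06 with a median of 5.60, against a median of 5.04 over all peaks, and 17 of 27 lay above that median. The strongest was at HOXB7, with a mean higher than in 99.9% of all peaks. Peaks above the median of the table were found in HOXA (8 of 10), HOXB (6 of 9) and HOXC (3 of 4), and no HOXD peak reached it.

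With IFN-β, 26 of the 27 HOX peaks had a lower mean than without it. The median difference was −0.86, and the range was −2.74 to 0.65. The whole table was lower as well, with a median difference of −0.69, a ratio of summed signal of −0.70 on the log2 scale, and a middle 95% of differences from −1.51 to 0.31. What set that common shift was not tested, and 21 HOX peaks lay below the median of the table. A mean above that of unstimulated cells was found at 1 of 27 HOX peaks (3.70%), against 5.93% of all peaks. A mean lower by more than 1, a fold of 2, was found at 9 of 27 HOX peaks (33.3%), against 17.4% of all peaks.

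The same counts were made relative to the common shift. After the median of the table was taken off, 6 of 27 HOX peaks (22.2%) were more than 0.5 lower, against 7.53% of all peaks. More than 0.5 higher was 1 HOX peak (3.70%), against 10.8% of all peaks. Of the 6 lower peaks, 4 were in HOXA, 1 in HOXC and 1 in HOXD. No SD over libraries stands behind these shares, and their precision is unknown.

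The spread of differences was wider among weak peaks, so all peaks were ranked by mean signal and cut into 10 groups of equal size, and each HOX peak was set against the peaks of its own group, called peaks of like signal here. Below the middle 95% of the peaks of like signal lay 4 HOX peaks, of which 3 were in HOXA (peaks 3, 5 and 7, counted along the chromosome) and 1 was HOXD peak 4. Above it lay HOXB peak 4. The other 22 HOX peaks were inside that range.

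**Figure D1:**
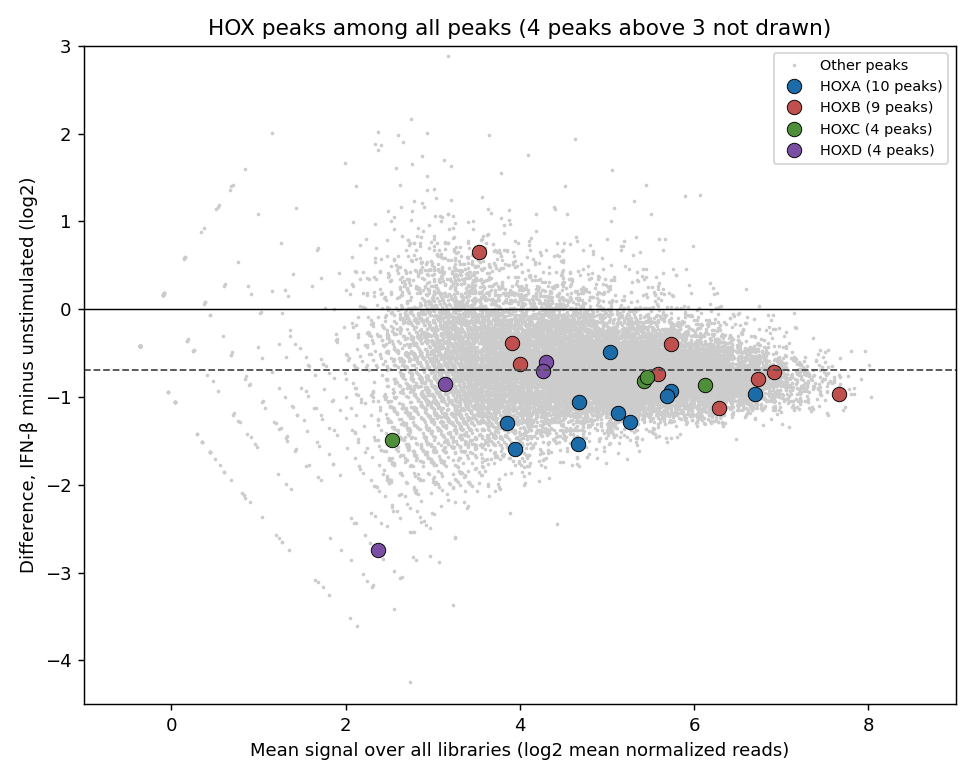
Difference in H3K27ac signal (IFN-β minus unstimulated, log2) on the y axis against mean signal over all libraries (log2 mean normalized reads) on the x axis, from the authors' means. Grey points are the other peaks of the table, coloured points are the 27 HOX peaks by cluster, and the dashed line is the median of all peaks, −0.69. HOXB peak 4 is the 1 coloured point above 0, and HOXD peak 4 is the lowest at −2.74.

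The HOXA cluster (chr7:27092993-27200091, GRCh38) had H3K27ac peaks along its length, and signal between the peaks was not read. Its 10 peaks were spread over 107 kb with no gap between neighbouring peak centres wider than 17.3 kb, and 9 of its 11 genes had a peak. Unstimulated means ran from 4.36 to 7.10 with a median of 5.43. All 10 peaks were lower with IFN-β, with a lowest difference of −1.59 and a median of −1.12, and 9 of them lay below the median of the table. By more than 1 were 6 of the 10 lower, against 17.4% of all peaks, which was the largest share among the clusters. The median over all peaks of that chromosome was −0.68.

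Numbered along the chromosome, peaks 2 and 3 lay within HOXA3, a gene needed for the thymus and parathyroid. The centre of peak 2 was over an exon of HOXA3, 154 bp from one of its starts, and in an intron of HOXA-AS2. That of peak 3 was over an exon of HOXA-AS2, 308 bp from one of its starts. Peak 2 (chr7:27113191-27114191) went from 5.60 to 4.42, a difference of −1.18. Peak 3 (chr7:27115213-27116213) went from 5.24 to 3.70, a difference of −1.54, and 0.647% of the peaks of like signal had a lower one.

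Peak 4 (chr7:27130110-27131626), 88 bp from a HOXA4 start, was the 1 HOX peak wider than 1 kb, at 1516 bp. Its means were 5.11 and 4.05, a difference of −1.06. Per kb it held 22.8 normalized reads in unstimulated cells. Peak 5 (chr7:27135836-27136836) was an intronic peak in a long HOXA3 transcript, 3870 bp from the nearest HOX start. It went from 4.53 to 2.94, and its difference of −1.59 was the lowest in HOXA. It also had the lowest GC content of all HOX peaks, at 43.3%.

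Peaks 6 (chr7:27150076-27151076) and 7 (chr7:27155602-27156602) sat at the starts of HOXA6 and HOXA7, genes of the trunk. At HOXA6 the means were 6.13 and 5.20, a difference of −0.93. At HOXA7 they were 5.77 and 4.48, a difference of −1.29. Of the peaks of like signal, 1.59% had a lower difference than the HOXA7 peak.

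Peak 8 (chr7:27166570-27167570) was the strongest of HOXA. It lay in an intron of HOXA9, a gene of blood progenitors that is highly expressed in many leukaemias. The nearest HOXA9 start was 1533 bp away, and the peak lay upstream of that start. The mean was 7.10, or 137 normalized reads, in unstimulated cells and 6.13, or 70.0 reads, with IFN-β. This peak alone held 25.7% of the signal of the HOXA peaks, and its difference of −0.97 was above the median of the cluster.

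Peak 9 (chr7:27183871-27184871) lay in an intron of HOXA11, which like its neighbour HOXA10 patterns the reproductive tract, 136 bp from a start of HOXA11-AS. Its means were 6.10 and 5.11, a difference of −0.99. Peak 10 (chr7:27199241-27200241) lay over an exon of HOXA13, a gene of the limb ends and hindgut, 350 bp from its start, and in an intron of HOTTIP. It had the highest GC content of the HOX peaks, at 75.2%, and its means were 4.36 and 3.06, a difference of −1.30. The posterior end thus held the weakest HOXA peak.

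GC content moved with the difference across the whole table. When the peaks were cut into 10 groups of equal size by GC, the lowest group had a median difference of −0.48 and the highest had −0.82. Relative to peaks of like GC, the median HOXA difference was −0.34, and relative to peaks of like signal it was −0.44. For HOXB, HOXC and HOXD the medians relative to GC were −0.06, −0.11 and −0.06. The part of GC content in the HOXA values was not tested further.

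**Figure D2:**
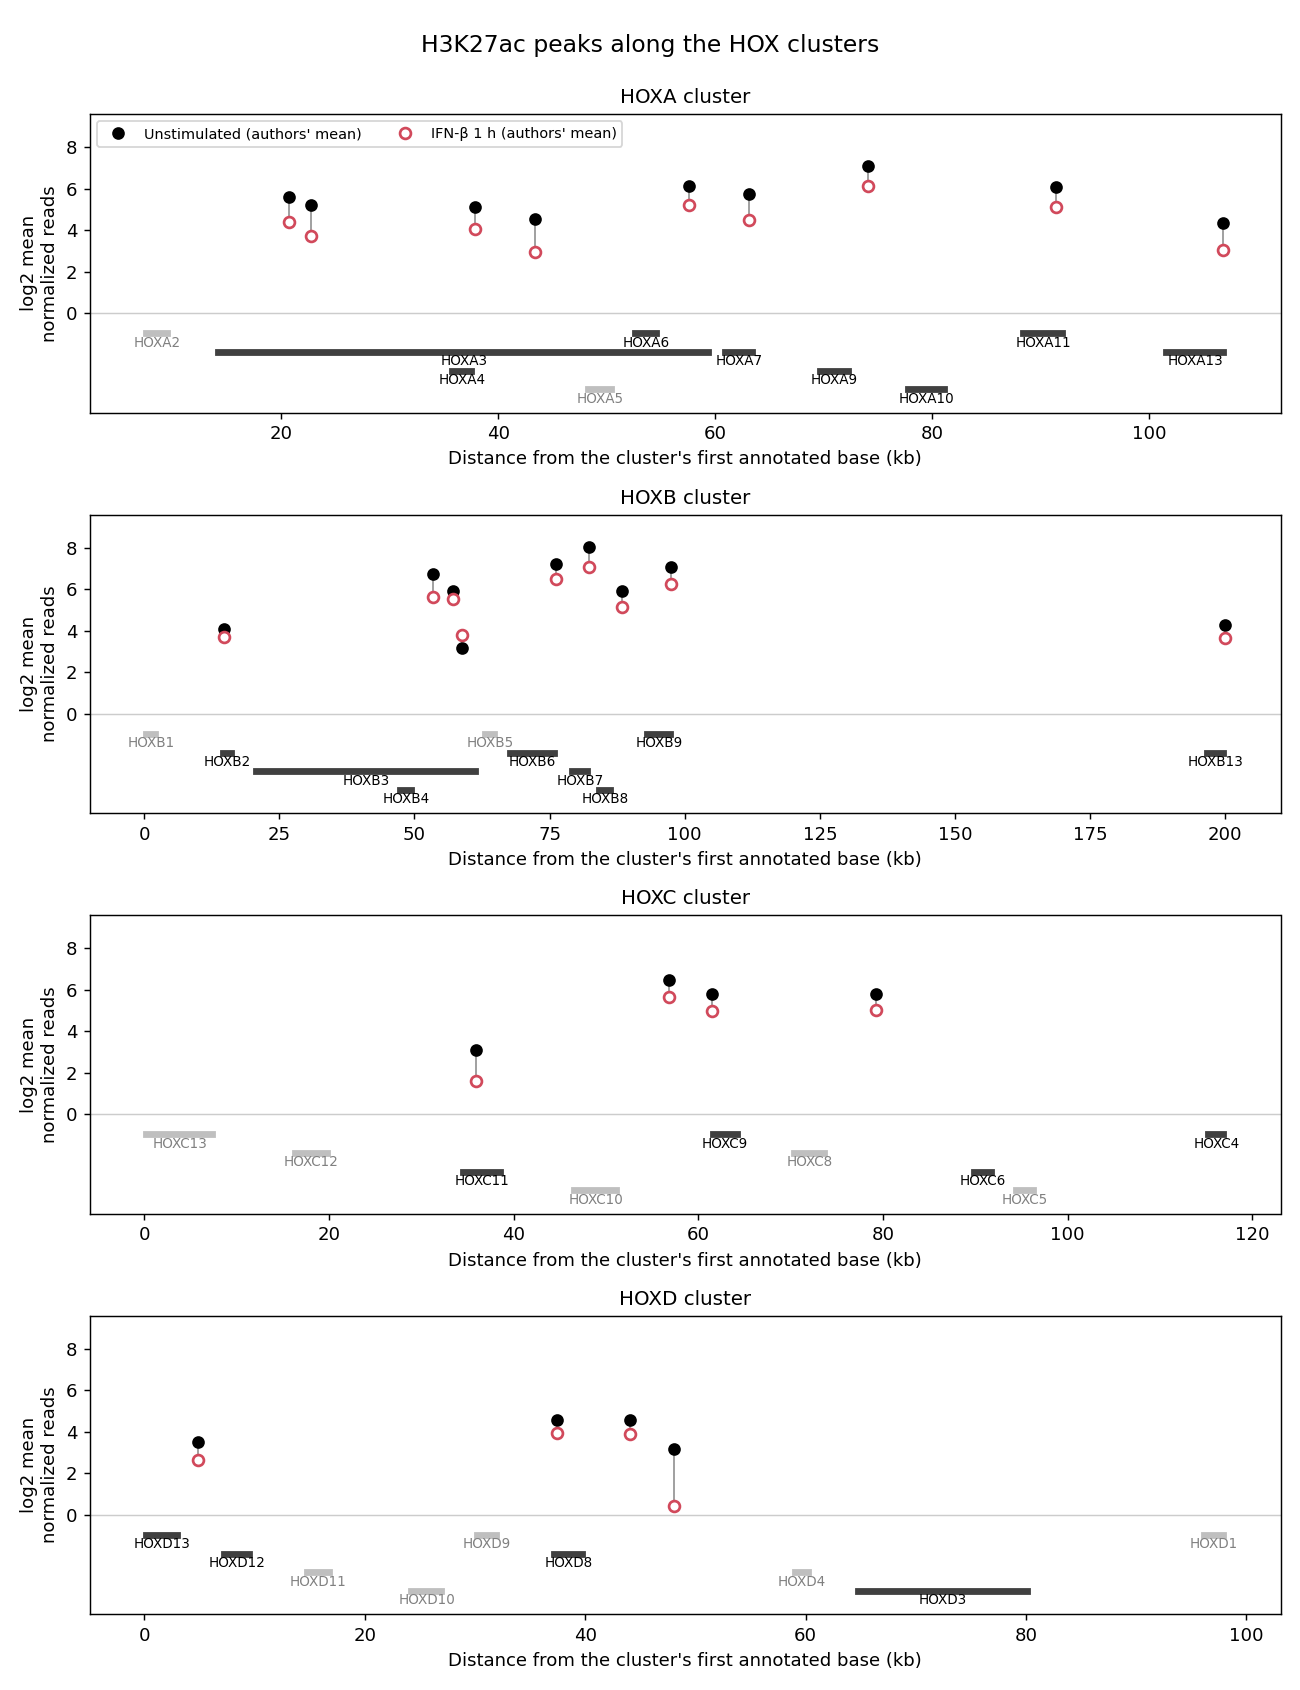
H3K27ac signal (y axis, log2 mean normalized reads) against distance from the first annotated base of each cluster (x axis, kb). Filled points are the unstimulated and open points the IFN-β authors' means, and bars are canonical transcripts, grey where the gene has no peak by the rule over all its transcripts. Peaks ran along all of HOXA, crowded in the middle of HOXB and were few in HOXC and HOXD.

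The HOXB cluster (chr17:48528526-48728750) held the strongest HOX peaks. Its 9 peaks had unstimulated means from 3.17 to 8.06 with a median of 5.93, and 8 of its 10 genes had a peak. The differences ran from −1.13 to 0.65 with a median of −0.71, near those of its chromosome (−0.71) and of the table (−0.69). Lower by more than 1 was 1 of the 9 peaks, against 17.4% of all peaks, and 5 of 9 lay below the median of the table. The HOX peaks left a gap of 102 kb between HOXB9 and HOXB13. Inside it, 13029 bp from a HOXB7 start and so outside the rule, lay a strong peak at chr17:48646101-48647101 with means of 7.32 and 6.52 and a difference of −0.80.

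Peak 1 (chr17:48542859-48543859) lay over an exon of HOXB2, a hindbrain gene, 213 bp from one of its alternative starts and 1750 bp from its canonical start. It was weak, with means of 4.09 and 3.70 and a difference of −0.39. Peak 2 (chr17:48581478-48582478) lay near HOXB4, a gene that expands blood progenitors, 644 bp from a HOXB3 start. It was strong in unstimulated cells, with a mean of 6.75 against 5.62 with IFN-β, and its difference of −1.13 was the lowest in HOXB.

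Peaks 3 and 4 were neighbouring intronic peaks of HOXB3 with different values. Peak 3 (chr17:48585171-48586171) went from 5.93 to 5.53, a difference of −0.40. Peak 4 (chr17:48586800-48587800) was the 1 HOX peak with a higher mean after IFN-β, 3.82 against 3.17, a difference of 0.65. It rests on few reads, 9.0 normalized reads in unstimulated cells and 14.1 with IFN-β. The middle 95% of peaks of like signal ran from −1.76 to 0.55. Its CpG content was low, with an observed to expected ratio of 0.20 against a median of 0.656 over all peaks.

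Peaks 5 to 8 lay over the trunk genes HOXB6 to HOXB9. Peak 5 (chr17:48604138-48605138), 274 bp from the nearest HOX start, went from 7.23 to 6.52, a difference of −0.71. Peak 6 (chr17:48610278-48611278), in HOXB7, went from 8.06 to 7.10, or from 267 to 137 normalized reads, a difference of −0.96. Those reads made up 32.3% of the HOXB signal.

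Peak 7 (chr17:48616415-48617415) lay 1623 bp upstream of a start of HOXB8, a gene that holds myeloid progenitors undifferentiated when overexpressed. Its means were 5.90 and 5.16, a difference of −0.74. Peak 8 (chr17:48625572-48626572), at HOXB9, had means of 7.07 and 6.27 and a difference of −0.80. Peaks 5 to 8 all lay within 0.27 of the median of the table.

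Peak 9 (chr17:48727993-48728993) stood alone at HOXB13, which is separated from the rest of the cluster and is used in prostate and distal colon epithelium. Its means were 4.28 and 3.66, a difference of −0.62.

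The HOXC cluster (chr12:53938831-54056030) had 4 peaks, with a median difference of −0.84, and 4 of its 9 genes had one. Peak 1 (chr12:53974214-53975214) was weak and lay in HOXC11, 242 bp from a start of HOTAIR, a long noncoding RNA known for its link to Polycomb. Its means were 3.09 and 1.60, or 8.51 and 3.03 normalized reads. The difference of −1.49 rests on those few reads, and 11.9% of peaks of like signal had a lower one.

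The other 3 HOXC peaks were above the median of the table in unstimulated cells, and their differences lay between −0.86 and −0.77. Peak 2 (chr12:53995181-53996181), 172 bp from a HOXC9 start and over an exon of HOXC-AS2, had means of 6.50 and 5.64 and a difference of −0.86. Peak 3 (chr12:53999775-54000775), in the exon of HOXC9, a gene of the thoracic trunk, had means of 5.79 and 4.97 and a difference of −0.82. Peak 4 (chr12:54017566-54018566) lay in introns of the long HOXC6 and HOXC4 transcripts and had means of 5.80 and 5.03 and a difference of −0.77. The canonical starts of HOXC6 and HOXC4 had no peak within 5 kb, and both genes counted only through their long transcripts.

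The HOXD cluster (chr2:176092721-176190907) was the weakest, with a summed signal of 68.1 normalized reads against 533 in HOXA, 825 in HOXB and 210 in HOXC. It had 4 peaks, with a median difference of −0.78, and 4 of its 9 genes had one. Peak 1 (chr2:176097097-176098097) lay between HOXD13 and HOXD12, both genes of the digits, and had means of 3.51 and 2.66 and a difference of −0.85. Peak 2 (chr2:176129630-176130630), 108 bp from the HOXD8 start, had means of 4.57 and 3.97 and a difference of −0.60. Peak 3 (chr2:176136281-176137281), at a HOXD3 start and 14 bp from a HOXD-AS2 start, had means of 4.58 and 3.88 and a difference of −0.70.

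HOXD peak 4 (chr2:176140299-176141299) had the lowest difference of all HOX peaks. It lay in an intron of the long HOXD3 transcript, 3842 bp from the nearest HOX start. Its means were 3.17 and 0.43, or 9.0 and 1.35 normalized reads, a difference of −2.74. Among peaks of like signal 1.10% had a lower difference, and their middle 95% ran from −2.32 to 0.82. HOXB peak 4 had the same unstimulated mean of 3.17 and the opposite direction, and both rest on reads near the low end of the table.

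**Figure D3:**
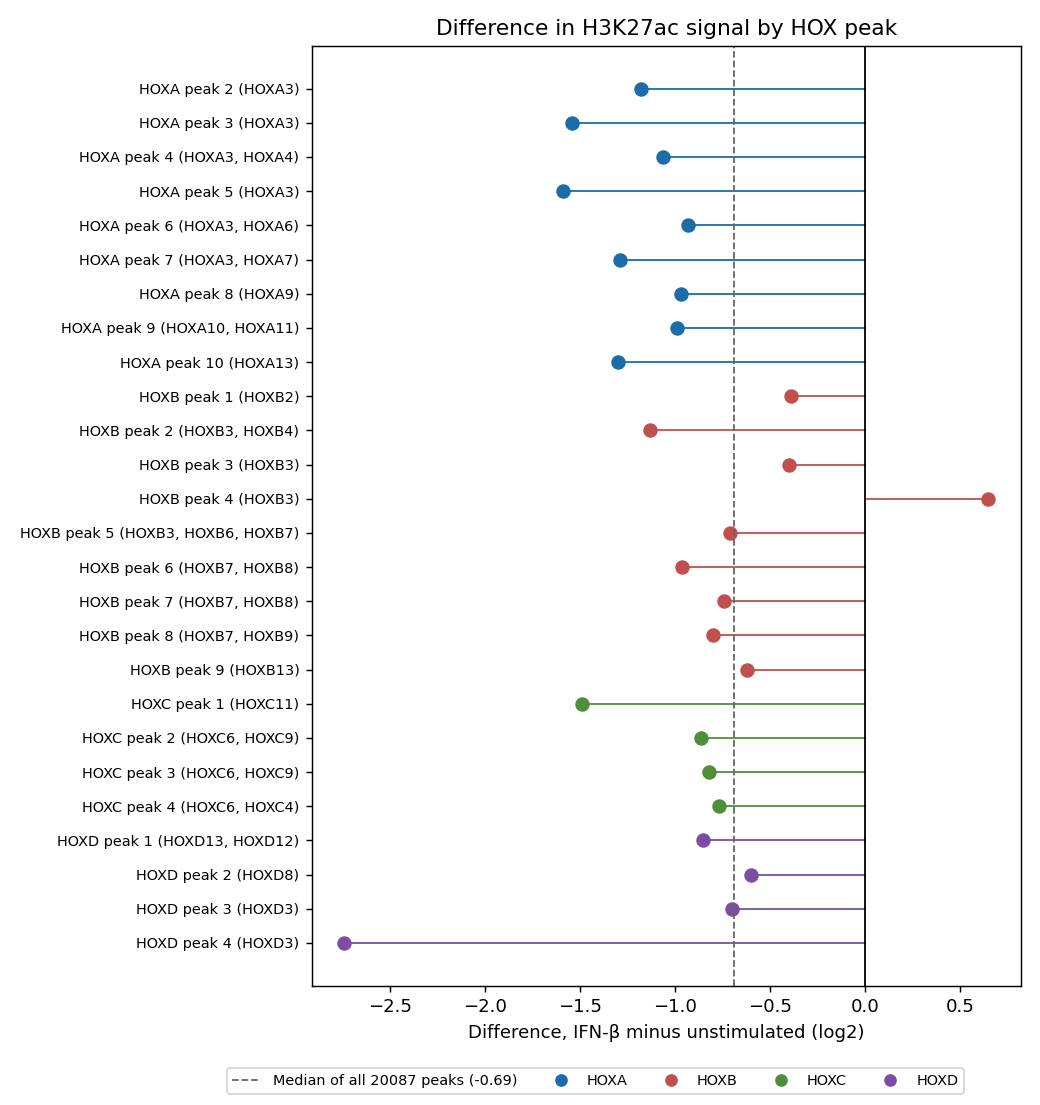
Difference in H3K27ac signal at 26 HOX peaks (x axis, IFN-β minus unstimulated, log2), one row per peak in coordinate order with the HOX genes it met the rule for. Colours mark the cluster, the solid line is 0 and the dashed line is the median of all 20087 peaks, −0.69. All HOXA rows drawn lie left of the dashed line, while HOXB rows lie on both sides.

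Summed over the peaks of a cluster, the normalized reads were 533 and 258 in HOXA, 825 and 477 in HOXB, 210 and 117 in HOXC, and 68.1 and 38.1 in HOXD, without and with IFN-β. The log2 ratios of these sums were −1.05 in HOXA, −0.79 in HOXB, −0.85 in HOXC and −0.84 in HOXD, against −0.70 over all peaks. HOXA had the lowest ratio. Whether the clusters differ was not tested, since there is no spread over libraries.

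Of the 39 HOX genes, 25 had a peak and 14 had none. The genes without a peak were HOXA2 and HOXA5, HOXB1 and HOXB5, HOXC5, HOXC8, HOXC10, HOXC12 and HOXC13, and HOXD1, HOXD4, HOXD9, HOXD10 and HOXD11. No peak means no entry in the deposited table within the rule's distance, and weak acetylation could have gone undetected at the number of reads used. The 3 genes of paralog group 5 all lacked a peak. The nearest peak centre was 6895 bp from the canonical start of HOXA5, 6479 bp from that of HOXB5 and 14984 bp from that of HOXC5.

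The other genes without a peak ranged from close to far. HOXA2, a gene of the second pharyngeal arch, was 5966 bp from the nearest peak centre, just past the limit. HOXB1, a gene of a single hindbrain segment, was 6414 bp away. The furthest were HOXC13, a gene of hair and nail at 35883 bp, and HOXD1 at 47869 bp.

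A peak within 1 kb of a start of their own was found for 17 of the 39 genes, 7 in HOXA, 6 in HOXB, 2 in HOXC and 2 in HOXD. By the whole rule HOXA3 had 6 peaks, HOXB3 had 4, HOXB7 had 4 and HOXC6 had 3. The furthest members from a start, at 3049, 3842 and 3870 bp, were all inside bodies. Just outside the rule, 5721 bp from a HOXB2 start, lay chr17:48536925-48537925 with means of 3.74 and 2.87 and a difference of −0.87.

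By paralog group, the anterior groups 1 to 3 had 5 of 8 genes with a peak, the central groups 4 to 8 had 10 of 15 and the posterior groups 9 to 13 had 10 of 16. Placed by nearest canonical start, the anterior groups held 7 peaks with unstimulated means from 3.17 to 6.13 and differences from −1.54 to 0.65. The central groups held 11 peaks with medians of 5.77 and −0.96. The posterior groups held 9 peaks with medians of 5.79 and −0.86. Below the median of the table lay 3 of the 7 anterior, 10 of the 11 central and 8 of the 9 posterior peaks. These counts depend on the placing, which gave some peaks to a gene other than that of the nearest HOX start. HOXD peak 4 (−2.74), in a HOXD3 intron, counted as central through HOXD4, which had no peak by the rule. HOXA peak 6, 27 bp from a HOXA6 start, counted as anterior through HOXA3. Whether the paralog groups differ was not tested.

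**Figure D4:**
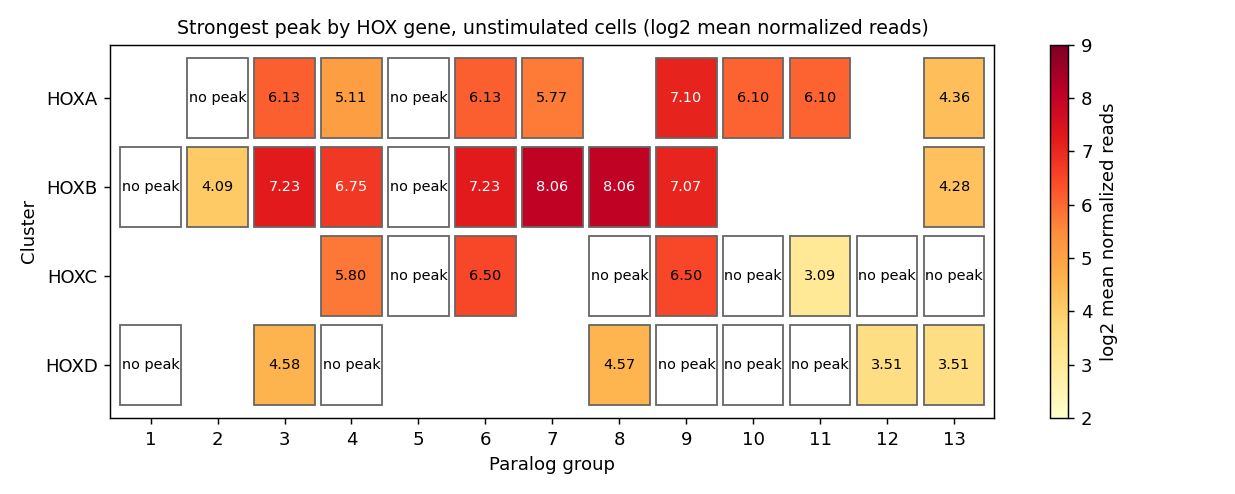
Strongest peak by HOX gene in unstimulated cells (log2 mean normalized reads, authors' mean), by cluster (rows) and paralog group (columns). Coloured boxes give the value, white boxes are genes without a peak and empty places have no gene or are not shown, and a peak shared by neighbouring genes stands in each of their boxes. HOXB7 and HOXB8 shared the highest value, 8.06, and paralog group 5 had no peak.

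Within 1 kb of an annotated start of any gene lay 20 of the 27 HOX peaks (74.1%), against 62.9% of all peaks, and the rule itself chose peaks by their distance to starts. A HOX start was within 1 kb of 17 of them, and their unstimulated means ran from 4.09 to 8.06 with a median of 5.77 and differences from −1.30 to −0.39 with a median of −0.86. Another 3 lay within 1 kb of a start of another gene, with differences from −1.54 to −0.77. The last 7 had no annotated start within 1 kb, and these held both extremes, −2.74 and 0.65, around a median of −0.85.

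The HOX peaks were rich in GC, with a median of 61.2% against 58.1% over all peaks. Motifs were searched within 500 bp of each peak centre on both strands, and matches to different motifs could overlap. The GC box, GGGCGG, which Sp1 family factors bind, was in 19 of 27 HOX peaks (70.4%) and in 67.3% of all peaks. The E-box CACGTG was in 6 (22.2%) and in 17.9% of all peaks. The TATA word TATAAA was in 6 (22.2%) and in 28.5% of all peaks. These shares were counted over few HOX peaks, and no test was made of them.

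Words that HOX proteins bind were found in some HOX peaks. The homeobox core TAATTA was in 3 HOX peaks (11.1%), HOXA peak 5, HOXB peak 4 and HOXC peak 3, and in 14.9% of all peaks. The word TTTATNG, bound by CDX and posterior HOX proteins, was in 8 (29.6%), 5 in HOXA and 3 in HOXB, and in 27% of all peaks. Of the words for PBX-HOX pairs, TGATTTAT was in 2 (7.41%) and in 2.85% of all peaks, and TGATTGAT was in none and in 1.56% of all peaks.

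The AP-1 word TGAGTCA was in 0 of 27 HOX peaks and in 27.3% of all peaks. The usual limit for a count of 0 among 27 independent peaks is a share of 11.1%, or 3 in 27. The HOX peaks are neighbours chosen by place and not independent, and no test of the AP-1 share was made. Among all peaks the AP-1 word was in 12.9% of those within 1 kb of a start and in 51.9% of those further away. The cyclic AMP element TGACGTCA and the CTCF core consensus were also in 0 of 27, against 2.79% and 1.11% of all peaks. The retinoic acid element with 5 free positions, DR5, was in HOXA peak 2 alone (3.70%) and in 0.339% of all peaks. Retinoic acid is a known inducer of anterior HOX genes. A match is a match of letters only, and no match says nothing of the factor.

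The ISRE core, read as a pair of GAAA words with 2 free bases between them, was in 4 HOX peaks (14.8%) and in 11.6% of all peaks. Among them were HOXA peak 6, HOXB peak 3 and HOXC peak 2, with differences of −0.93, −0.40 and −0.86. Relative to the median of the table these were −0.24, 0.29 and −0.17, so they lay on both sides of it. A link between the motif and the difference was not tested. HOXB peak 4, the 1 peak with a higher mean, had none within 500 bp.

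As a check on the treatment, 9 genes known to respond to interferon were read the same way, by the strongest peak within 5 kb of a start. Of the 8 with a peak, 6 had a higher mean with IFN-β, with a median difference of 0.62 and the highest at IFI6, 1.94. The cell type was checked on markers. Peaks were present at 7 of 9 epithelial markers, among them EPCAM with an unstimulated mean of 7.10 and KRT19 with 6.67, and absent at VIL1 and CDX1. The haematopoietic and neuronal markers, 3 and 2 genes, had none, 3 of 4 mesenchymal markers had one (ZEB1 5.93, COL1A1 5.24 and TWIST1 3.54), and of 2 endothelial markers CDH5 had a weak one at 2.44. All of these were chosen with earlier results known.

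HOX proteins bind DNA with homeodomain partners of the TALE class, the PBX, MEIS and PKNOX proteins. Of 9 TALE genes 7 had a start peak, with differences from −0.86 to −0.22 and a median of −0.62, none above 0 and none lower by more than 1, against 5.93% and 17.4% of all peaks. Their median was above that of the table, −0.69. The strongest was PKNOX1, with means of 6.92 and 6.12, and MEIS1 and PKNOX2 had no peak. Of 6 ParaHox genes, the sister cluster of HOX genes and the CDX genes, CDX2 alone had one, with means of 5.37 and 4.28 and a difference of −1.09.

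Genes for the upstream regulators had a peak at every member listed. The 13 Trithorax and MLL complex genes had differences from −1.08 to −0.16 with a median of −0.89, 1 of them lower by more than 1. KMT2A had means of 6.07 and 5.40, a difference of −0.67, and DOT1L, a histone methyltransferase that MLL fusion proteins depend on, had 6.93 and 6.00. The 14 Polycomb genes had differences from −1.11 to −0.28 with a median of −0.90, 2 of them lower by more than 1. EZH2, the methyltransferase of the complex, had means of 7.01 and 6.27, a difference of −0.74. Both medians lay close to the −0.86 of the HOX peaks. The sets were not of like signal, with unstimulated medians of 6.07 and 6.17 in the 2 lists and 5.60 at the HOX peaks. Lower by more than 1 were 9 of the 27 HOX peaks and 17.4% of all peaks.

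**Figure D5:**
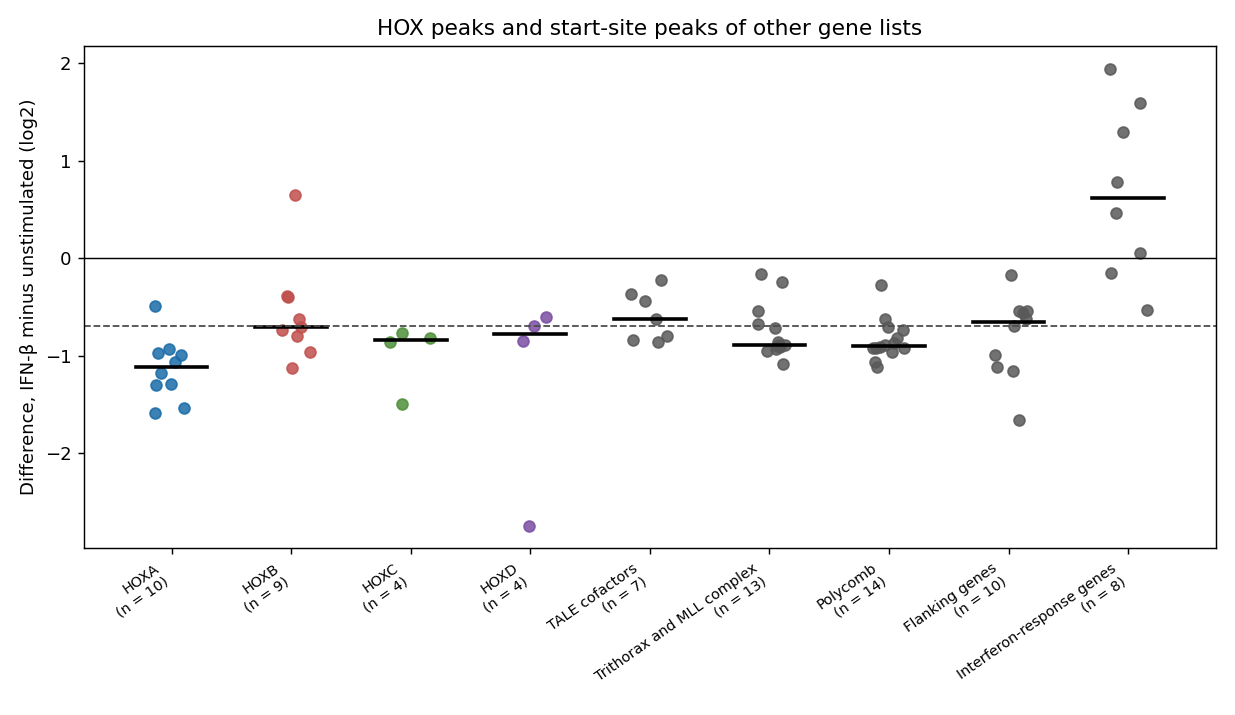
Difference in H3K27ac signal (y axis, IFN-β minus unstimulated, log2) for HOX peaks by cluster and for the strongest start peak of each gene in other lists. Points are peaks or genes, thick bars are medians, n is the number of points and the dashed line is the median of all peaks, −0.69. All lists but the interferon-response genes have medians below 0, and the HOXA median of −1.12 is the lowest of those drawn.

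Of 24 noncoding genes annotated in the HOX clusters, 16 had a peak within 5 kb of a start, and they used 13 peaks, all of them HOX peaks. The strongest unstimulated means near their starts were 7.23 for HOXB-AS3, 7.10 for HOXA10-AS and 7.07 for HOXB-AS4. HOTAIR and HOTTIP had 3.09 and 4.36, with differences of −1.49 and −1.30. HOXD noncoding genes HAGLR and HAGLROS had no peak.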

How the data were processed

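H3K27ac ChIP-seq was made from 2 IFN-β, 2 unstimulated and 1 input library. Per the submitters' processing notes and the study's methods, reads were demultiplexed (bcl2fastq 2.17), trimmed (fastp 0.19.3) and aligned to GRCh38 (Bowtie2, version given as 2.25), peaks were called with MACS2 against input, and DiffBind with DESeq2 merged and scored them. The values deposited by the authors are log2 mean normalized reads per peak, over all libraries and per group. Those 3 columns were used. A further 3 columns hold the authors' own comparison (fold, p-value and false discovery rate) and were neither used nor printed. With no value per library, no test, SD or interval could be given. The study's methods give a range of reads over the ChIP libraries, but not the depth of each one.

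Peaks were placed by centre against GENCODE release 44 on GRCh38 (39 of 39 sequence names matched), using all transcripts. Every HOX peak and HOX gene was to be described, without choice by value; 1 HOX gene with its peak, counted in the totals, and 1 sequence are not reported here. For other lists a gene's strongest peak within 5 kb of a start was read. Members, lists and motifs were chosen with earlier results of these data known. Normalized reads are 2 to the power of the deposited mean. Placing, percentiles and motif search were checked on simulated data. Alternatives were the distance (1 and 10 kb), canonical starts, overlap, centring, a signal minimum, the threshold and the motif window (250 bp). Python 3.11.15, numpy 2.4.6, pandas 2.3.3, scipy 1.17.1, pysam 0.24.0 and matplotlib 3.10.9 were used.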

Additional observations from a re-analysis of the deposited data

How the results depend on the processing

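No paired analysis was possible because the table holds no value per library, and leaving out each replicate could not be run for the same reason. The number of HOX peaks and of HOX genes with one stayed at 27 and 25 with gene starts only, without bodies, or with any overlap of the peak. They were 24 and 21 with canonical transcripts only, 26 and 20 within 1 kb, and 28 and 33 within 10 kb. Kept to peaks at or above the table median in signal, there were 15 HOX peaks at 16 genes. Of these peaks 0 were higher with IFN-β and 3 were lower by more than 1, and the shares among all peaks of that signal were not counted. The median difference was −0.17 centred on the table median, −0.16 centred within 10 groups of like GC, −0.17 within 10 groups of like signal and −0.16 scaled by summed signal. Under the same settings 6, 7, 7 and 6 of the 27 HOX peaks lay above 0, against 1 uncentred, since each setting takes off the common shift. Centring on a median by itself puts about as many of all peaks above 0 as below it. The exact shares of all peaks were not counted. Lower by more than 0.5 were 23 HOX peaks, against 9 by more than 1. The median of all peaks, −0.69, is itself past 0.5, and the share of all peaks past it was not counted. Within 250 bp, TTTATNG was in 11.1% of HOX peaks and in 13.4% of all peaks. TATAAA was in 3.70% of HOX peaks and in 14.9% of all peaks. A shorter window can only lower such shares, and no test was made of them. Few reads limit HOXB peak 4, HOXD peak 4 and HOXC peak 1.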

Other observations

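Genes flanking the clusters were read by their strongest peak within 5 kb of a start. Of 14, 10 had a peak, with differences from −1.66 to −0.17 and a median of −0.66. Lower by more than 1 were 3 of these 10, against 17.4% of all peaks, and no test was made. SKAP2, beside HOXA, had means of 4.72 without and 3.06 with IFN-β, while HIBADH on the other side of HOXA had 5.31 and 5.14. MTX2, beside HOXD, had 5.73 and 5.04. EVX1 and EVX2, homeobox genes at the ends of HOXA and HOXD, had no peak. The PRAC2 peak was also the HOXB13 peak.

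The HOX clusters also hold microRNA genes, and 6 were placed against the peaks. The nearest peak centre was 2031 bp from MIR10A (HOXB peak 2), 2493 bp from MIR196B (HOXA peak 8), 3943 bp from MIR196A2 (HOXC peak 2) and 6487 bp from MIR196A1 (HOXB peak 8). MIR10B, at 9504 bp, and MIR615, at 15884 bp, were further away. The 3 nearest microRNA genes stood by peaks with unstimulated means of 6.75, 7.10 and 6.50.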
